A study of Homo sapiens with 16 samples.

Results

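NCI-H596, a lung adenosquamous carcinoma line that expresses MET lacking exon 14 (MET∆14), was compared between 3 h and 6 h of hepatocyte growth factor (HGF). The comparison was defined by the sample labels alone and takes in 4 of the 16 libraries of the series, 2 at 6 h and 2 at 3 h. In the series, poly(A) RNA of MET∆14 cells (NCI-H596) and of wt MET cells (named A549 in the labels, a lung adenocarcinoma line) was sequenced at 0, 3, 6 and 12 h of HGF, each condition in 2 biological replicates, after serum deprivation for 12 h according to the labels. The methods of the study give a longer serum deprivation, and its text introduces EKVX, another lung adenocarcinoma line, as its wt MET cells, which conflicts with the label A549. The name A549 is kept here as the label gives it. Each MET status is carried by 1 line, so MET status and line cannot be told apart. There is no library without HGF after 0 h, so HGF and the time that had passed since 0 h also cannot be told apart. Because the RNA is from whole cultures, fewer cells of a kind and less RNA per cell cannot be told apart either.

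HGF is the ligand of MET, a receptor tyrosine kinase that signals through the RAS and ERK, PI3K and AKT, and STAT3 routes. Exon 14 encodes the juxtamembrane stretch that carries the docking site of the ubiquitin ligase CBL, and receptors without it are cleared more slowly once HGF has bound. Growth factors first switch on immediate early genes, which need no new protein and are shut down again by feedback; genes that depend on newly made factors follow hours later, and the step from 3 to 6 h of HGF lies in that second period.

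At 6 h, NCI-H596 held more RNA of genes for ribosome assembly, and less RNA of immediate early factors, cytokines and clock genes, than at 3 h. Genes for matrix contact were also higher, with a median log2 fold change of 0.30. That median depended on single libraries and was 0.12 without replicate 2 of 6 h. Of 15067 genes tested, 1472 were called at an adjusted p of 0.05 (edgeR's quasi-likelihood test, Benjamini-Hochberg), which is 9.77% of all tested genes. They comprised 703 genes that were higher at 6 h (4.67%) and 769 that were lower (5.1%). The rises were mostly small, with a median log2 fold change of 0.45 and 48 genes at 2-fold or more, and the falls were larger, with a median of -0.63 and 138 genes at 2-fold or more. The median change of all tested genes was 0.01. In CPM, read counts scaled to a common library size (TMM), both 6 h libraries lay above both 3 h libraries for 4774 genes (31.7%) and below them for 4268 genes (28.3%), so groups that do not overlap are common at n = 2 and are given below only beside the test.

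**Figure D1:**
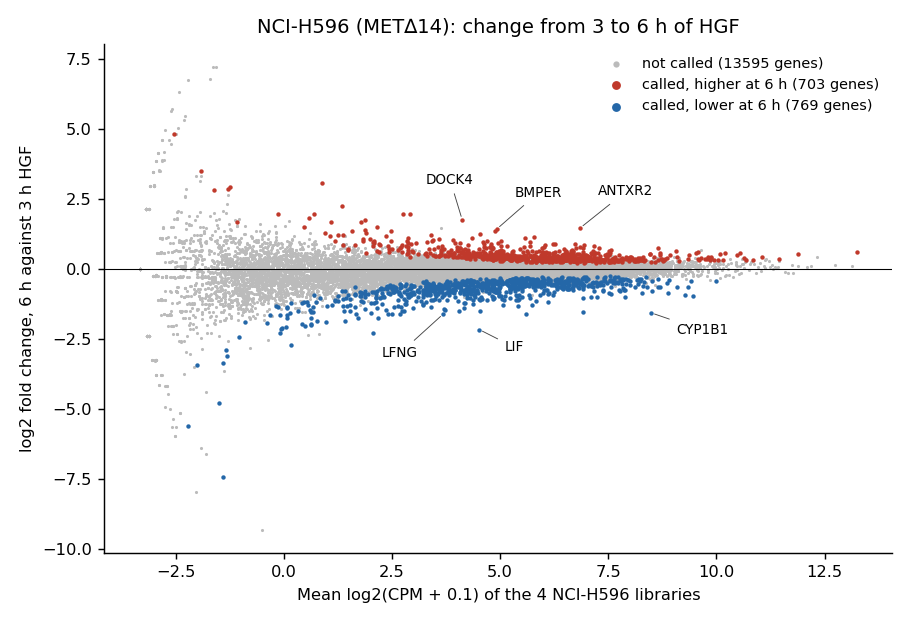
Change of each of the 15067 tested genes from 3 to 6 h of HGF in NCI-H596 (vertical axis, log2 fold change) against its mean level (horizontal axis, mean of log2(CPM + 0.1) over the 4 libraries). The 703 called rises are red and the 769 called falls blue, and the points fanning out at the left are genes with few counts, whose fitted fold changes depend on the prior count of the fit.

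The 4 libraries held 11828154 to 23909304 gene counts each, with replicate 2 of 6 h the deepest. The replicates of 3 h correlated at 0.991 and those of 6 h at 0.993 across genes in log2 CPM, and libraries of different times at 0.986 to 0.988. Epithelial markers (KRT8 at 799.9 to 904 CPM) and the squamous markers KRT5 (2088 to 2461 CPM) and TP63 (96.5 to 122 CPM) were present, SOX2 was below 1 CPM, and of the lung adenocarcinoma markers only MUC1 was present (NKX2-1 and SFTPB had 0 counts in all 4 libraries, and NAPSA and SFTPC at most 3). The fibroblast markers COL1A2, DCN and LUM and the leukocyte marker PTPRC were at 2 counts or fewer in every library, although the fibroblast markers COL3A1 (170.1 to 328 CPM) and COL1A1 (16.9 to 26.9 CPM) and the leukocyte markers CD68 (125 to 146 CPM) and CD14 (11.6 to 19.9 CPM) were present. The number of calls depended on 2 libraries outside the comparison. The MET∆14 replicates at 12 h correlated at only 0.982, and since all libraries share one estimate of the spread, 3100 genes were called without replicate 1 of 12 h (1683 higher, 1417 lower) and 3045 without replicate 2 (1571 higher, 1474 lower). Of the 1472 calls, 1468 and 1467 were kept in those fits. With any 1 of the 4 libraries of the comparison left out, between 459 and 661 genes were called: 543 and 536 without replicate 1 or 2 of 3 h, and 661 and 459 without replicate 1 or 2 of 6 h.

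MET itself did not pass the test. Its level was 437 and 405 CPM at 3 h and 391.9 and 443 CPM at 6 h, with overlapping groups and a log2 fold change of -0.01 ± 0.09 (SE, n = 2 per time; adjusted p = 0.972 by edgeR's quasi-likelihood test). TBP, a general transcription factor often used as a reference in qPCR, was at 9.61 and 9.62 CPM at 3 h and 9.96 and 11.3 CPM at 6 h, which also did not pass (log2 fold change 0.15 ± 0.13, adjusted p = 0.524, edgeR). The 23 tested genes for MET and its partners held 2 calls higher (8.70%, against 4.67% of all genes) and 1 lower (4.35%, against 5.1%). Their median was -0.01, and counts this small do not set the list apart from all genes. The calls were CD44, a hyaluronan receptor that acts as a MET co-receptor (0.42 log2), the phosphatase SHP2 gene PTPN11 (0.28) and the sheddase gene ADAM17 (-0.32). These calls rested on single libraries: CD44 and PTPN11 had adjusted p-values of 0.191 and 0.120 without replicate 2 of 6 h, where that of ADAM17 was 0.0586, and those of PTPN11 and ADAM17 were 0.249 and 0.102 without replicate 1 of 6 h (edgeR). Without replicate 1 or 2 of 3 h they were 0.127 and 0.0854 for CD44, 0.262 and 0.155 for PTPN11 and 0.0787 and 0.0861 for ADAM17 (edgeR).

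Among genes whose log2 CPM averaged 3 or more, the largest rise was that of DOCK4, an activator of the small GTPase RAC in migrating cells (ENSG00000128512, hg38 chromosome 7, 111726110 to 112206407, minus strand). DOCK4 was at 9.20 and 9.56 CPM in the 3 h libraries and 30.4 and 33.5 CPM in the 6 h libraries. The 0 h libraries were at 8.80 and 8.84 CPM, close to those of 3 h. The log2 fold change from 3 to 6 h was 1.77 ± 0.15 (adjusted p = 1.63e-05, edgeR's quasi-likelihood test), or 3.41-fold. ANTXR2, a receptor for matrix proteins and anthrax toxin, was at 69.5 and 68.8 CPM at 3 h and 185 and 200.4 CPM at 6 h. Here the groups lay far apart, and the level was already higher at 3 h than at 0 h (24.8 and 27.7 CPM). The step from 3 to 6 h was 1.48 ± 0.11 log2 (adjusted p = 8.46e-06, edgeR). BMPER, a secreted protein that binds bone morphogenetic proteins, went from 19.5 and 17.4 CPM to 46.2 and 53.3 CPM (1.44 ± 0.13 log2, adjusted p = 2.32e-05, edgeR). At 12 h it was at 53.9 and 50.9 CPM. The calls of DOCK4, ANTXR2 and BMPER were kept with each library left out in turn.

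The other 9 of the 12 largest rises had log2 fold changes from 1.06 to 1.38. They were MOB3B, a relative of the kinase co-activators of the Hippo pathway (1.38), LPAR1, a receptor for lysophosphatidic acid (1.24), the wound-associated keratin KRT6B (1.24), the kinase TNIK (1.16), the basement membrane protein FRAS1 (1.12), the collagen COL8A1 (1.11), the PD-1 ligand PDCD1LG2 (1.07), the gasdermin GSDMC (1.06) and TMC7 (1.06). For each of them both 6 h libraries were above both 3 h libraries, which the rule that named them required. LPAR1 shows a step with no earlier movement: it was at 14.1 and 14.4 CPM at 0 h, 13.6 and 16.3 CPM at 3 h and 36.3 and 35.0 CPM at 6 h. TNIK behaved alike, at 40.3 and 37.1, 35.4 and 38.5 and 85.7 and 79.9 CPM. PDCD1LG2 had an adjusted p of 0.0798 without replicate 2 of 6 h (edgeR). TMC7 is uncertain, since 15.8% of its exonic bases lie opposite another gene and the use of strand in counting is not given.

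The largest fall was that of LIF, a cytokine of the interleukin 6 family (ENSG00000128342, hg38 chromosome 22, 30240453 to 30246759, minus strand). LIF was at 49.2 and 47.3 CPM at 3 h and 10.03 and 11.5 CPM at 6 h. Its 3 h libraries were a peak, with 4.56 and 4.67 CPM at 0 h before it and 6.30 and 4.08 CPM at 12 h after it, and the log2 fold change from 3 to 6 h was -2.15 ± 0.13 (adjusted p = 6.77e-07, edgeR's quasi-likelihood test). CYP1B1, a cytochrome P450 that oxidises oestrogens and aromatic hydrocarbons, followed the same course with 281 and 277 CPM at 0 h, 637 and 596.2 at 3 h, 219.8 and 200.3 at 6 h and 72.3 and 82.7 at 12 h. The log2 fold change of CYP1B1 was -1.55 ± 0.13 (adjusted p = 1.63e-05, edgeR), and 12.8% of its exonic bases lie opposite another gene. SIK1, a kinase of the AMPK family induced by cyclic AMP, was at 33.5 and 38.0 CPM at 0 h, 93.6 and 74.6 at 3 h and 26.9 and 29.2 at 6 h, again a peak at 3 h. SLC30A1, which exports zinc from the cell, had one high 3 h library, with 141 and 280.1 CPM at 3 h against 74.2 and 70.9 at 6 h.

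A second kind of fall continued a decline that was already visible at 3 h. LFNG, a glycosyltransferase that modifies Notch receptors, was at 51.7 and 48.0 CPM at 0 h, 20.7 and 23.7 at 3 h and 7.26 and 7.41 at 6 h (-1.60 ± 0.15 log2, adjusted p = 2.32e-05, edgeR). CROT, a peroxisomal carnitine acyltransferase, was at 59.6 and 61.1, 38.5 and 38.4 and 13.8 and 13.5 CPM. GPER1, a membrane oestrogen receptor, was at 44.7 and 41.1, 18.6 and 25.3 and 8.23 and 7.84 CPM and higher again at 12 h, with 26.7 and 23.3 CPM. These genes had no peak at 3 h. No library of 6 h reached the level of a 3 h library, which the rule that named them required. The other large falls were DTX4, a Deltex protein of the Notch pathway (-1.42 log2), the butyrophilin BTN3A1 (-1.38), SAMD11 (-1.33), the stress factor ATF3 (-1.32) and RGPD6 (-1.498). RGPD6 is uncertain because it belongs to a family of near-identical copies among which reads can be split, and its call was lost without replicate 1 of 3 h (adjusted p = 0.0822, edgeR) and without replicate 1 or 2 of 6 h (0.0784 and 0.0572).

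**Figure D2:**
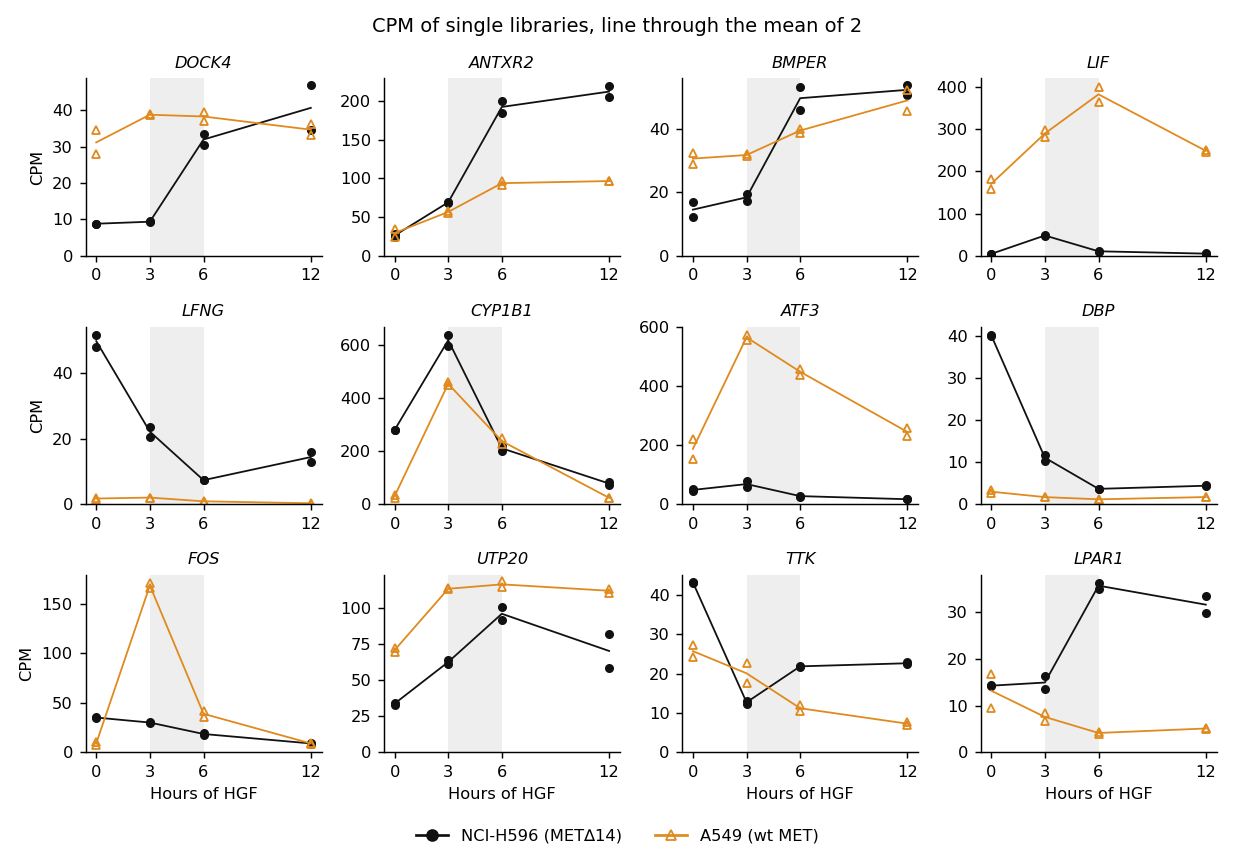
CPM of 12 genes in the single libraries against hours of HGF, with filled circles for NCI-H596 and open triangles for A549, lines through the mean of the 2 replicates and the interval from 3 to 6 h in grey. LIF and CYP1B1 peak at 3 h in NCI-H596, LFNG and DBP fall from 0 to 6 h and are higher again at 12 h, and DOCK4 leaves its 0 h level only after 3 h.

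The immediate early transcription factors were the list with the greatest share of calls among the 30 lists compared. Of its 32 tested members 0 rose and 19 fell (59.4%, against 5.1% of all genes), with a median log2 fold change of -0.55. FOS, a subunit of AP-1, was at 30.9 and 29.4 CPM at 3 h and 17.4 and 19.9 CPM at 6 h (-0.68 ± 0.13 log2, adjusted p = 0.00414, edgeR's quasi-likelihood test), and was not above its 0 h level (36.2 and 34.3 CPM) at 3 h. EGR3, a zinc finger factor induced by ERK, did peak at 3 h, with 1.96 and 1.79 CPM at 0 h, 9.69 and 8.09 at 3 h and 1.95 and 1.71 at 6 h (-2.28 ± 0.21 log2, adjusted p = 2.34e-05, edgeR). NR4A3, an orphan nuclear receptor, was low throughout with 2.93 and 2.15 CPM at 3 h and 1.12 and 0.685 at 6 h (-1.54 log2), and its call was lost without replicate 2 of 6 h (adjusted p = 0.0707, edgeR). ATF3 was at 79.1 and 57.2 CPM at 3 h and 29.0 and 25.5 at 6 h (-1.32 ± 0.17 log2, adjusted p = 4.19e-04, edgeR).

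The other 15 called members were NR4A1, NR4A2, EGR2, EGR4, FOSB, FOSL2, JUNB, JUND, MAFF, IER5L, BTG2, SRF and the RNA-decay factors ZFP36, ZFP36L1 and ZFP36L2, from -1.48 log2 for NR4A1 to -0.34 for SRF. EGR1 did not pass, at 128 and 115 CPM at 3 h and 81.8 and 89.2 CPM at 6 h (-0.50 ± 0.22 log2, adjusted p = 0.196, edgeR), although its groups did not overlap. MYC did not pass either, at 217 and 194 CPM and 164 and 169 CPM (-0.30 ± 0.11 log2, adjusted p = 0.0915, edgeR). Between 15 and 17 members were called lower when 1 of the 4 libraries was left out.

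Genes that restrain ERK signalling were the next list. Of 20 feedback inhibitors, 0 rose and 5 fell (25%, against 5.1%), with a median of -0.18. The phosphatase DUSP1 was at 206 and 181 CPM at 3 h and 102 and 90.8 CPM at 6 h (-1.003 ± 0.10 log2, adjusted p = 3.38e-05, edgeR's quasi-likelihood test), and DUSP2 at 17.8 and 14.5 and 7.63 and 7.67 CPM (-1.07 log2). At 0 h DUSP1 was lower than at 3 h, at 109 and 110 CPM. DUSP2 was at 18.1 and 18.6 CPM at 0 h, so it was not above that level at 3 h. The ERK phosphatase DUSP6 and the Sprouty gene SPRY4 were not called. DUSP6 was at 30.8 and 33.0 CPM at 0 h, 72.2 and 67.9 at 3 h and 78.1 and 74.9 at 6 h, and its change of 0.13 ± 0.08 log2 did not pass (adjusted p = 0.404, edgeR); 28.6% of its exonic bases lie opposite another gene. SPRY4 was at 9.58 and 13.7, 67.3 and 69.4 and 65.9 and 67.3 CPM, with overlapping groups at 3 and 6 h. The count of the list was 2 without replicate 2 of 6 h and 3 without either replicate of 3 h.

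Secreted signals fell as well. Of 20 tested chemokines and cytokines 1 rose and 8 fell (40%, against 5.1%), with a median of -0.52. The falls were LIF, CCL20, IL11, IL1A, IL1B, IL6, CXCL2 and CSF1. IL6 was at 19.7 and 16.02 CPM at 3 h and 8.16 and 10.5 CPM at 6 h (-0.92 ± 0.21 log2, adjusted p = 0.0128, edgeR's quasi-likelihood test). The exception was IL33, an alarmin stored in epithelial nuclei, which went from 92.6 and 88.6 CPM to 174 and 159 CPM (0.88 ± 0.11 log2, adjusted p = 2.66e-04, edgeR). The call of IL6 was lost without replicate 1 of 3 h (adjusted p = 0.138, edgeR) and without replicate 1 of 6 h (adjusted p = 0.124, edgeR), while LIF and IL33 kept theirs with any library left out. CXCL8 did not pass, at 231 and 180.5 and 151 and 166 CPM. The falls numbered 3 without replicate 1 of 3 h, 4 without replicate 2 of 3 h or replicate 1 of 6 h, and 5 without replicate 2 of 6 h. Among the 13 receptors and ligands of the EGF family 0 rose and 5 ligand genes fell (38.5%, against 5.1%). The falls were EPGN (117 and 101 CPM at 3 h, 62.2 and 73.3 at 6 h), EREG, AREG, NRG1 and NRG4. EPGN had an adjusted p of 0.119 without replicate 1 of 3 h and 0.111 without replicate 1 of 6 h (edgeR). The EGF family falls numbered 3 without replicate 1 of 3 h and 2 without replicate 1 of 6 h, where NRG4 had an adjusted p of 0.0514 (edgeR). NRG4 had 5 counts or fewer at 6 h, and 38.2% of its exonic bases lie opposite another gene.

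The circadian clock genes were called lower in 9 of 18 cases and higher in 0 (50%, against 5.1%), with a median of -0.55. The called genes were the output factors DBP, TEF and HLF, the repressors PER1, PER2 and PER3, the nuclear receptors NR1D1 and NR1D2, and BHLHE40. DBP fell the most, from 11.7 and 10.4 CPM to 3.59 and 3.68 CPM (-1.59 ± 0.15 log2, adjusted p = 2.32e-05, edgeR's quasi-likelihood test). It had been at 40.1 and 40.2 CPM at 0 h, so its 3 h level was already far below that of 0 h. PER1 was at 48.8 and 51.2, 32.3 and 34.0 and 15.05 and 16.3 CPM at 0, 3 and 6 h (-1.08 ± 0.15 log2 from 3 to 6 h, adjusted p = 4.92e-04, edgeR). The core activators ARNTL and CLOCK were not called (0.09 and 0.12 log2), nor were CRY1 and CRY2.

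**Figure D3:**
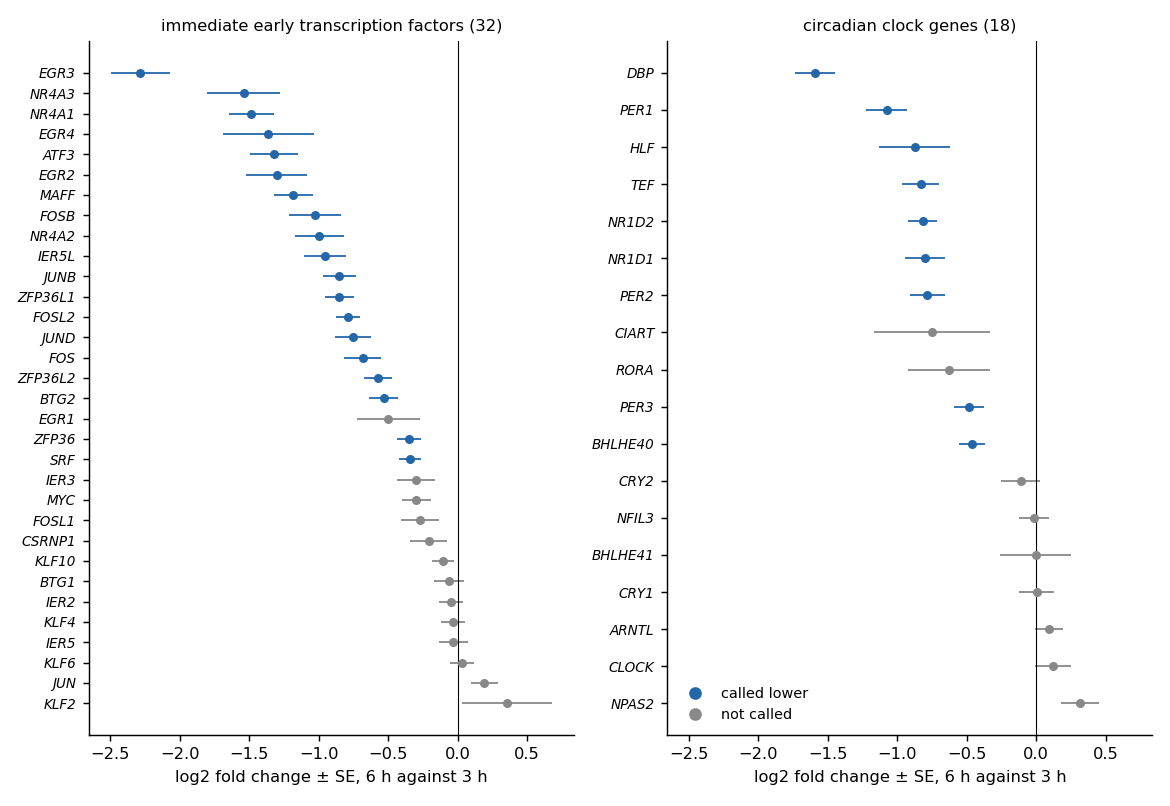
Log2 fold change from 3 to 6 h of HGF in NCI-H596 with its standard error (horizontal axis) for the 32 immediate early genes (left) and the 18 clock genes (right), ordered by size. Blue marks the 19 and 9 members called lower, grey marks members not called, and no member of either list was called higher.

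Genes that FOXO factors drive or that AKT represses fell in 8 of 26 cases and rose in 0 (30.8%, against 5.1%), with a median of -0.19. PIK3IP1, an inhibitor of PI3K, was at 30.1 and 27.6 CPM at 0 h, 6.19 and 5.55 at 3 h and 1.497 and 1.89 at 6 h (-1.75 ± 0.20 log2 from 3 to 6 h, adjusted p = 1.03e-04, edgeR's quasi-likelihood test). The sestrin SESN3 was at 86.4 and 81.7, 37.5 and 37.9 and 18.1 and 17.6 CPM (-1.08 ± 0.14 log2, adjusted p = 2.31e-04, edgeR). The other called members included FBXO32, BBC3, BCL2L11, FOXO4 and BCL6. The falls numbered 6 and 5 without replicate 1 or 2 of 3 h, and 5 and 3 without replicate 1 or 2 of 6 h. BBC3 and BCL2L11 encode the death-promoting proteins PUMA and BIM. Interferon-stimulated genes fell in 7 of 39 cases and rose in 0 (17.9%), with a median of -0.23. These falls numbered 3 and 5 without replicate 1 or 2 of 3 h, 2 and 4 without replicate 1 or 2 of 6 h, and 16 and 17 without replicate 1 or 2 of 12 h.

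Ribosome biogenesis was the list with the most rises: 21 of 48 members rose (43.8%, against 4.67% of all genes), 0 fell, and the median was 0.27. UTP20, a scaffold of the small subunit processome, was at 63.7 and 61.5 CPM at 3 h and 91.5 and 101 CPM at 6 h (0.62 ± 0.11 log2, adjusted p = 0.00356, edgeR's quasi-likelihood test). BOP1, a processing factor of the large subunit, was at 45.4 and 50.7 CPM and 78.1 and 84.4 CPM (0.76 ± 0.11 log2, adjusted p = 6.55e-04, edgeR). UTP20 had an adjusted p of 0.0547 without replicate 2 of 6 h (edgeR). Both genes were already higher at 3 h than at 0 h (33.1 and 34.5 CPM for UTP20 and 31.5 and 36.7 CPM for BOP1). The abundant nucleolar genes NPM1 (755 and 743 CPM at 3 h, 968 and 975 CPM at 6 h) and NCL (692 and 689 and 904 and 933 CPM) were among the 21, chosen here after their values were seen. Of all 48 members 45 had a log2 fold change above 0, the largest fall being that of POLR1C (-0.28, not called). The 79 tested genes of ribosomal proteins held 0 calls, with a median of 0.10. The count of 21 rested on every library: it was 6 and 8 without replicate 1 or 2 of 3 h, 11 and 5 without replicate 1 or 2 of 6 h, and 31 (with 1 call lower) without either 12 h library, while the median stayed between 0.24 and 0.29.

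The E-box CACGTG, which MYC and its partner MAX can bind, was searched in RefSeq promoter windows of 300 bases around the start (GRCh38.p14), of which 40 of the 48 ribosome biogenesis genes have one. The word reads the same on both strands. It was present in 15 of the 40 (37.5%), against 10.01% of the 11036 distinct promoters of tested genes and 7.43% of all 27305 promoters in the table. Among the 40, the word was present in 6 of 16 members called higher and in 9 of 24 not called, the same share. The 6 windows of called genes are shown 5′ to 3′ on the strand of the gene, with up to 30 bases on either side and the E-box in capitals, because the share of promoters with this word is the sequence feature in which the list departs from the other promoters.
UTP20 (chr12:101280065-101280130, plus strand): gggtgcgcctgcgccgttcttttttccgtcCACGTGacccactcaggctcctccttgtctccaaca
RRP9 (chr3:51941874-51941939, minus strand): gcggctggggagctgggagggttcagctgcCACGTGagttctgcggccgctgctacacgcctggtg
MYBBP1A (chr17:4555335-4555387, minus strand): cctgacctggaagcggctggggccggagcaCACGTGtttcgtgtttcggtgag
NAT10 (chr11:34105584-34105649, plus strand): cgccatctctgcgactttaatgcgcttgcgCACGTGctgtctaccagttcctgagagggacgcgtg
MRTO4 (chr1:19251789-19251854, plus strand): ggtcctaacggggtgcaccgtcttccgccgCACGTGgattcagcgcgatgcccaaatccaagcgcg
PES1 (chr22:30591862-30591927, minus strand): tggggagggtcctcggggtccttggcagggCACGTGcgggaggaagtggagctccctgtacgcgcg
In these 6 windows the E-box begins between 15 bases before and 27 bases after the annotated start. A match is a word in the sequence and not a measured site of binding. The log2 fold changes of the 6 genes ranged from 0.50 for PES1 to 0.62 for UTP20.

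**Figure D4:**
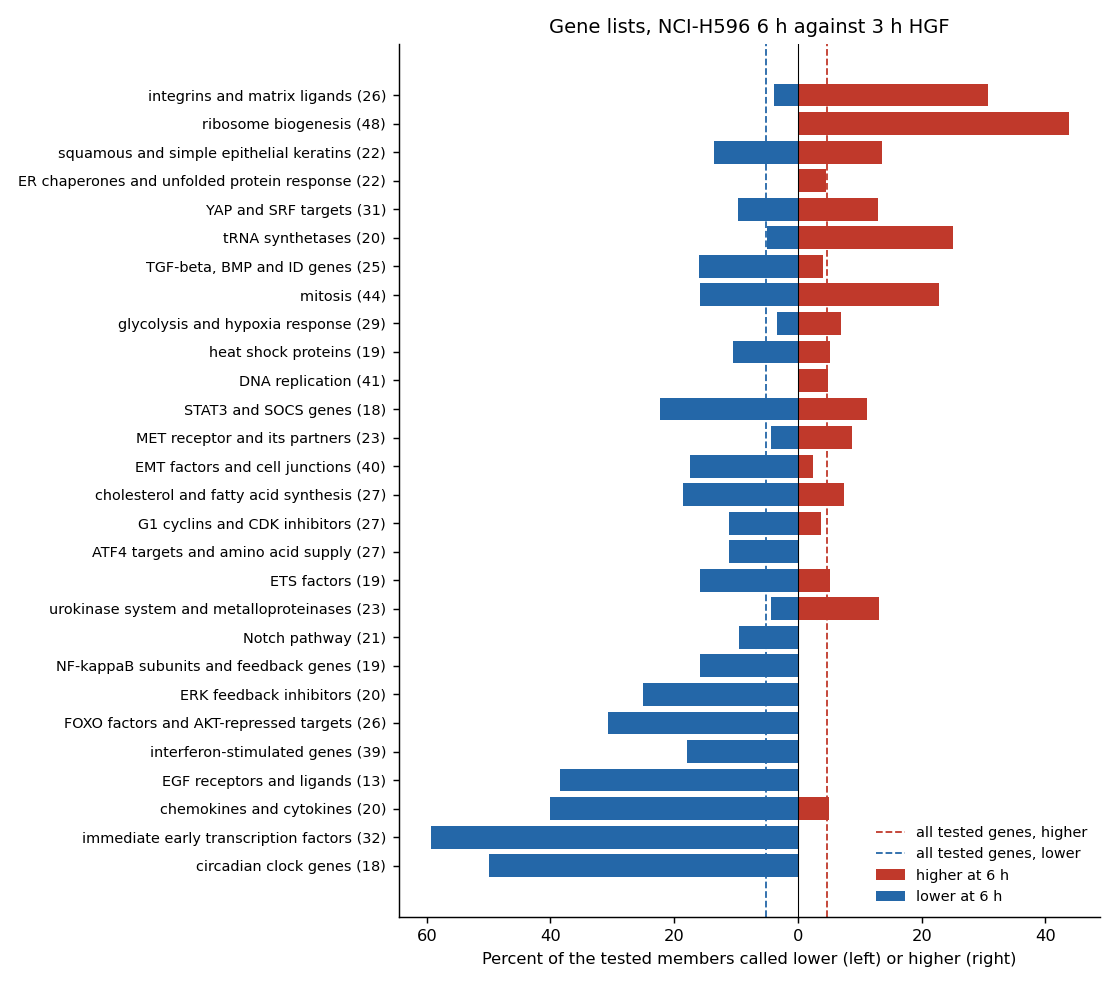
Share of the tested members of the gene lists shown (number tested in brackets) called higher (red, right) or lower (blue, left) at 6 h against 3 h in NCI-H596, with the shares over all tested genes as dashed lines (4.67% and 5.1%). The lists are ordered by their median log2 fold change, with immediate early factors and clock genes at the bottom and integrins and ribosome biogenesis at the top.

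Integrins and matrix ligands rose in 8 of 26 cases and fell in 1 (30.8% higher, against 4.67%), with a median of 0.30. TNC, the matrix protein tenascin C, was at 149 and 154 CPM at 3 h and 209 and 249.7 CPM at 6 h (0.60 ± 0.13 log2, adjusted p = 0.00775, edgeR's quasi-likelihood test). Without replicate 1 of 3 h, replicate 2 of 3 h and replicate 2 of 6 h, the adjusted p (edgeR) was 0.0786, 0.0538 and 0.118 for TNC. The rises also included the integrin genes ITGA2, ITGA3, ITGA5, ITGA6, ITGB1 and ITGB5, and the fall was ITGB8 (-0.40). The count depended on single libraries: the list held 1 rise without either 3 h replicate, 6 without replicate 1 of 6 h and 1 without replicate 2 of 6 h, where its median was 0.12. Of 31 YAP and SRF targets 4 rose (12.9%, against 4.67%), among them the actin genes ACTB and ACTG1 (0.53 log2). ACTB was at 8384 and 7368 CPM at 3 h and 11106 and 12849 CPM at 6 h. FHL2, AJUBA and LATS2 fell (9.68%, against 5.1%). In the urokinase and metalloproteinase list 3 of 23 rose (13.0%, against 4.67%) and 1 fell (4.35%, against 5.1%). The collagenase MMP1 went from 3.09 and 3.62 CPM to 11.8 and 14.6 CPM (1.97 ± 0.34 log2, adjusted p = 0.00274, edgeR). The stromelysin MMP3 and the protease inhibitor SERPINE2 were also higher and ADAMTS1 was lower. Of these, ACTB had an adjusted p of 0.111 without replicate 2 of 3 h and 0.107 without replicate 2 of 6 h, ACTG1 lost its call without any 1 of the 4 libraries (0.0635 to 0.261), and ITGB8 did so without replicate 1 or 2 of 3 h (0.0734 and 0.0602) or replicate 1 of 6 h (0.0893, edgeR). MMP3, with at most 8 counts in a 3 h library, lost its call without any 1 of the 4 libraries (0.171 and 0.133 without replicate 1 or 2 of 3 h, 0.149 and 0.0588 without replicate 1 or 2 of 6 h), and ADAMTS1 did so without replicate 2 of 6 h (0.0584, edgeR). The YAP and SRF list held 1 or 2 rises without any 1 of the 4 libraries. SERPINB2, an inhibitor of urokinase, reached 894 and 1140.2 CPM from 689 and 585.3 CPM and did not pass (adjusted p = 0.0662, edgeR).

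Cell junction genes and keratins moved in both directions. Of 40 genes for EMT factors and junctions 1 rose and 7 fell (17.5% lower, against 5.1%), with a median of -0.04. The falls were the tight junction genes TJP1 (141 and 129.7 CPM at 3 h, 98.7 and 99.1 at 6 h), TJP3, CLDN1 and CLDN4, the gap junction gene GJA1, the desmosome gene PKP2 and the epithelial factor OVOL1, and the rise was CLDN12. OVOL1 passed narrowly (adjusted p = 0.0447, edgeR), and 27.3% of its exonic bases lie opposite another gene. CLDN12 is uncertain, since 17.6% of its exonic bases overlap another gene on the same strand. TJP1 had adjusted p-values of 0.114, 0.0729 and 0.0866 without replicate 1 of 3 h, replicate 1 of 6 h and replicate 2 of 6 h (edgeR). CDH1, which encodes E-cadherin, was at 102 and 101 CPM at 3 h and 94.3 and 125 CPM at 6 h, with overlapping groups. The falls numbered 1 to 5 when one of the 4 libraries was left out (1 and 3 without replicate 1 or 2 of 3 h, 2 and 5 without replicate 1 or 2 of 6 h). In the keratin list, of 22 tested, KRT6A, KRT6B and IVL rose (13.6%, against 4.67%) and KRT15, KRT80 and TGM1 fell (13.6%, against 5.1%). KRT6B was at 7.49 and 6.40 CPM at 3 h and 12.1 and 20.2 CPM at 6 h, and KRT15, a keratin of basal cells, at 43.8 and 43.1 and 22.5 and 22.6 CPM. The list held 0 rises without replicate 2 of either time, and KRT6B had an adjusted p of 0.254 without replicate 2 of 6 h, 0.119 without replicate 1 of 3 h and 0.195 without replicate 2 of 3 h (edgeR). KRT15 was at 0.0599 without replicate 2 of 6 h (adjusted p, edgeR).

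Mitotic genes split. Of 44 tested, 10 rose (22.7%, against 4.67%) and 7 fell (15.9%, against 5.1%), with a median of 0.05. CCNF, which encodes cyclin F, was at 67.6 and 70.7 CPM at 0 h, 34.9 and 38.6 at 3 h and 70.2 and 74.4 at 6 h (0.98 ± 0.10 log2 from 3 to 6 h, adjusted p = 3.38e-05, edgeR's quasi-likelihood test), so that its level at 6 h was back near that of 0 h. The spindle checkpoint kinase TTK was at 43.3 and 43.2, 12.3 and 13.2 and 21.9 and 21.9 CPM (0.78 ± 0.13 log2, adjusted p = 0.00149, edgeR), and remained below its 0 h level. CDC25C, a phosphatase that activates CDK1, was lower still at 6 h, with 23.0 and 22.3, 9.85 and 10.5 and 4.42 and 3.73 CPM (-1.34 ± 0.25 log2, adjusted p = 0.00374, edgeR). Without replicate 2 of 6 h, CDC25C had an adjusted p of 0.0698 (edgeR), whereas CCNF and TTK kept their calls with any library left out. The other rises were INCENP, CDCA8, CENPA, KIF18A, AURKA, PLK1, BUB1B and BUB3, and the other falls NUSAP1, HMMR, KIF20A, CCNB2, TOP2A and CDC25B. NUSAP1 is uncertain, since 86.8% of its exonic bases overlap another gene on the same strand. The rises numbered 2 and 4 without replicate 1 or 2 of 3 h and 2 without either 6 h replicate, and the falls 6 and 2 without replicate 1 or 2 of 3 h and 4 and 3 without replicate 1 or 2 of 6 h. The median then lay between -0.04 and 0.17. Leaving out a 12 h library gave 18 rises and 10 falls (replicate 1) or 17 and 10 (replicate 2). DNA replication genes rose in 2 of 41 cases and fell in 0, a share near that of all genes (4.88% against 4.67%).

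The same interval was compared in A549, which shares no library with it. In A549, 467 genes were called (3.1%), 217 higher (1.44%) and 250 lower (1.66%). With all 8 libraries of a line fitted alone the order of the lines was reversed, at 695 calls in NCI-H596 and 951 in A549. With only the 3 and 6 h libraries of a line fitted alone the calls numbered 3537 and 2435. The counts therefore do not rank the lines by the size of their change. Tested directly, the change differed between the lines for 775 genes (5.14%), 399 with a positive difference (NCI-H596 minus A549, 2.65%) and 376 with a negative one (2.5%). Of the 703 genes higher in NCI-H596, 21 were also higher in A549 (2.99% of the 703 and 9.68% of the 217) and 18 were lower. Of the 769 lower genes, 58 were lower in A549 (7.54% of the 769 and 23.2% of the 250) and 29 were higher.

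Immediate early genes fell in both lines, with 17 of 32 lower and 3 higher in A549, and 7 differences called in each direction. FOS fell more in A549, from 166 and 171 CPM to 41.9 and 36.1 CPM (-0.68 ± 0.13 log2 in NCI-H596 against -2.11 ± 0.12 in A549, difference 1.42 ± 0.18, adjusted p = 3.86e-04, edgeR's quasi-likelihood test). MYC was called higher in A549 (0.77 log2), and its change differed between the lines by -1.07 ± 0.15 (adjusted p = 9.67e-04, edgeR). Among the mitotic genes, 25 of 44 were called lower in A549 and 0 higher, with a median of -0.55, and 19 of the differences were called, all positive. PLK1, a kinase that drives mitotic entry, was at 65.1 and 75.5 and 96.7 and 93.2 CPM at 3 and 6 h in NCI-H596, and at 14.9 and 13.2 and 6.96 and 4.31 CPM in A549 (difference 1.74 ± 0.21, adjusted p = 3.06e-04, edgeR); 12.8% of its exonic bases lie opposite another gene. Its own rise in NCI-H596 (0.43 log2) was not called with any of the 4 libraries left out, with adjusted p-values of 0.311 and 0.0763 without replicate 1 or 2 of 3 h and 0.179 and 0.157 without replicate 1 or 2 of 6 h (edgeR).

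Ribosome biogenesis held 0 rises and 1 fall in A549 with a median of -0.10, and 12 differences were called, all positive, among them BOP1 (difference 1.22 ± 0.16, adjusted p = 6.25e-04, edgeR's quasi-likelihood test). For the clock genes 6 differences were called, all negative, and A549 had 1 rise and 0 falls. LIF was in A549 at 298 and 282 CPM at 3 h and 365 and 401 CPM at 6 h (0.40 ± 0.10 log2, adjusted p = 0.0515, not called), and the difference between the lines was -2.55 ± 0.17 (adjusted p = 2.26e-06, edgeR). DOCK4 was in A549 at 38.9 and 38.7 and 39.6 and 37.0 CPM, and the difference was 1.79 ± 0.20 (adjusted p = 2.14e-04, edgeR). ARAP2, a regulator of ARF GTPases, fell in NCI-H596 from 28.9 and 27.6 to 18.7 and 18.7 CPM and rose in A549 from 4.47 and 4.45 to 14.6 and 15.01 CPM (difference -2.32 ± 0.16, adjusted p = 2.36e-06, edgeR).

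**Figure D5:**
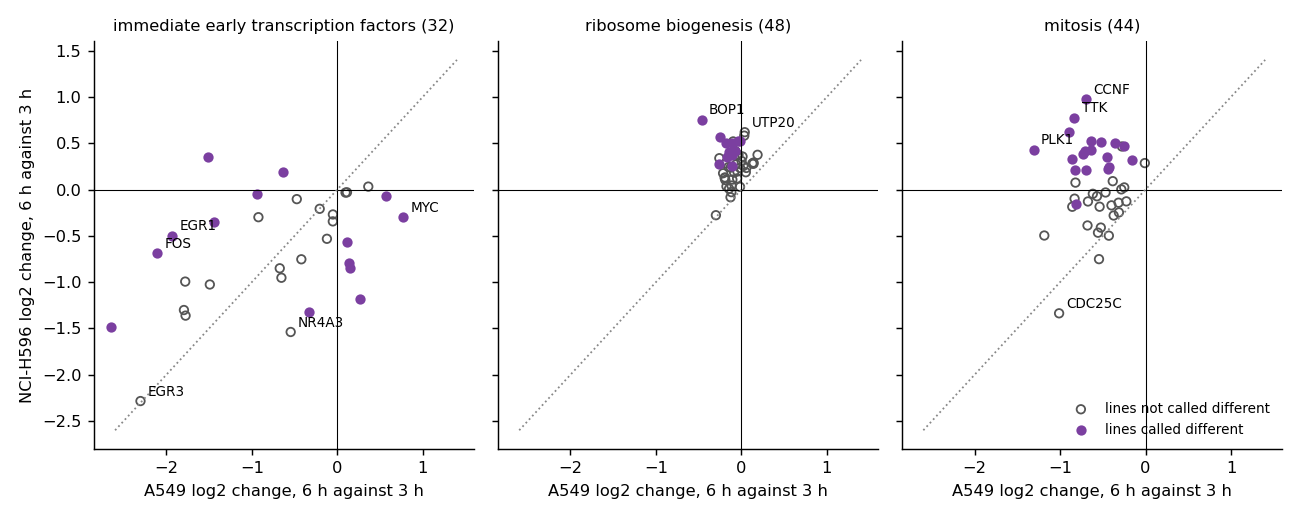
Log2 fold change from 3 to 6 h of HGF in NCI-H596 (vertical axis) against that in A549 (horizontal axis) for 32 immediate early, 48 ribosome biogenesis and 44 mitosis genes. Filled points are genes whose change was called different between the lines, the dotted line marks equal change, and most mitosis points lie left of 0 in A549 but on both sides of 0 in NCI-H596.

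The changes were also set beside those of NCI-H596 from 0 to 12 h, which use 4 other libraries. In that contrast 5774 genes were called (38.3%), 2753 higher (18.3%) and 3021 lower (20.1%). Of the 703 genes higher at 6 h than at 3 h, 539 were higher at 12 h than at 0 h (76.7% of the 703 and 19.6% of the 2753) and 19 were lower. Of the 769 lower genes, 510 were lower (66.3% of the 769 and 16.9% of the 3021) and 44 were higher. Without replicate 1 or 2 of 12 h the shared genes numbered 539 and 518 higher and 525 and 493 lower. Ribosome biogenesis was higher at 12 h than at 0 h in 46 of 48 cases, immediate early genes lower in 22 of 32, and interferon-stimulated genes lower in 34 of 39. Of the mitosis genes 38 of 44 were lower at 12 h than at 0 h and 1 was higher. This contrast also spans the step from 0 to 3 h, so it does not show that the rises from 3 to 6 h were undone. At 12 h CCNF was at 78.7 and 68.0 CPM and TTK at 22.9 and 22.4 CPM, near their 6 h levels. CDC25C, a fall from 3 to 6 h, was at 6.68 and 8.44 CPM. LIF, at 0.22 log2 (adjusted p = 0.362, edgeR), was not called from 0 to 12 h.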

How the data were processed

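Reads were trimmed of adapters and aligned to hg38 with STAR by the authors, who deposited unnormalized whole-number counts per gene. The submitters' processing notes name STAR 2.5.0 and RSEM 1.3.2. The role of RSEM and the use of strand are not given in the sources used here. Counts of 42351 genes were read for 16 libraries, and 0 columns were without a sample. The table spells the wt MET line slightly differently from the titles, and those columns were matched by the rest of the name. In R 4.3.3, edgeR 4.0.16 (with limma 3.58.1) kept 15067 genes by filterByExpr (minimum count 10, total 15), applied TMM and fitted a robust quasi-likelihood model with 1 coefficient per condition over all libraries. The Benjamini-Hochberg adjusted threshold was 0.05. Depth ranged from 11828154 to 23909304 counts at 3 and 6 h in NCI-H596, and the common biological coefficient of variation was 0.0868. The formula of the study, line plus time, gives no change of one line and was run as an alternative.

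The comparison, the 30 gene lists and the rule for named genes were chosen with earlier results of these data known. The rule took the 12 largest rises and 12 largest falls among called genes (mean log2 CPM of at least 3, groups not overlapping), the 4 largest positive and 4 largest negative differences between the lines, the 2 largest called rises and 2 largest called falls of each list, and a set of genes given in every case, such as MET and TBP. Some named genes and 1 list are not reported here. Replicates were labelled as biological. The p-values rest on a spread between replicates that was estimated over all libraries of both lines, not over the compared libraries alone. Replicate numbers did not pair the samples (correlation of deviations at 3 and 6 h -0.05 in NCI-H596 and -0.02 in A549). CPM were computed with TMM-scaled library sizes. Promoters came from RefSeq (GRCh38.p14), with a match for 11037 tested genes. Motif shares were computed only for the mitosis, DNA replication, ribosome biogenesis, clock and integrin lists. Each of these had at least 80% of its members matched, and the other lists were not searched. Gene positions are 1-based, from GENCODE on hg38.

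Counts were simulated with 200 of 14751 genes changed 2-fold between 3 and 6 h in NCI-H596. The same test recovered 90.5% (181 genes) with 20 false calls, and DESeq2 1.42.0 90.5% with 22 false calls. For both, the false calls were a larger share of the calls than the adjusted threshold is set to allow. The interaction test recovered 72.5% with 7 false calls. A549, where nothing was changed, had 0 calls. The changed genes were drawn only from genes well counted in NCI-H596 at 3 h. The recovery applies to 2-fold changes of such genes, and that of smaller changes or of genes with few counts was not tested. In the data, 48 of the 703 called rises and 138 of the 769 called falls reached 2-fold. Alternatives were DESeq2 and its size factors, filters on low counts, a minimum log2 fold change of 1, a replicate block, NCI-H596 or its 4 libraries alone, the formula of the study and each library left out. Added after the data were seen were a correction for GC content and length (99.8% of tested genes) and leaving out each 12 h library of NCI-H596. Figures were drawn with matplotlib 3.10.9.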

Additional observations from a re-analysis of the deposited data

Results flagged for a closer look

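The change from 3 to 6 h differed between NCI-H596 and A549, by the test of the difference itself, for 775 genes, and 48 of the named genes were among them (edgeR's quasi-likelihood test, Benjamini-Hochberg, 2 libraries per line and time). The values below are differences in log2 fold change, NCI-H596 minus A549. The 23 named genes with a positive difference were LPAR1 (2.12), DOCK4 (1.79), PLK1 (1.74), SLC29A1 (1.70), CCNF (1.68), TTK (1.61), EGR1 (1.43), FOS (1.42), FRAS1 (1.27), BOP1 (1.22), BMPER (1.13), CCNA2 (1.13), ELOVL6 (0.94), TNIK (0.92), GINS3 (0.88), ELK3 (0.80), ANTXR2 (0.75), AURKA (0.72), CLDN12 (0.65), FEN1 (0.60), VARS1 (0.58), DUSP6 (0.56) and E2F4 (0.44). Among them TTK, PLK1, CCNF, SLC29A1 and BOP1 were called higher in NCI-H596 and lower in A549, and FOS and EGR1 had their larger falls in A549. The negative differences of largest size were CCL20 (-3.06), LIF (-2.55), ARAP2 (-2.32), PIK3IP1 (-2.31), RGPD6 (-2.12), LBH (-1.79), TIMP3 (-1.77), CDKN1C (-1.73), SAMD11 (-1.66), MAML2 (-1.62), ITGB8 (-1.51) and HSPB8 (-1.43). The remaining negative differences were SLC30A1 (-1.43), SESN3 (-1.31), SIK1 (-1.11), MYC (-1.07), FHL2 (-1.05), PER1 (-1.003), ATF3 (-0.99), HMGCS1 (-0.83), BBC3 (-0.83), DUSP1 (-0.65), TJP1 (-0.60), AJUBA (-0.47) and ETS2 (-0.44). LBH, FHL2, MAML2 and ARAP2 were called lower in NCI-H596 and higher in A549. CCL20 had few counts in both lines, and RGPD6 belongs to a family of near-identical copies, so both values are uncertain. Low levels in A549 at 3 and 6 h make other differences less certain as well. There ITGB8 was at most at 1.01 CPM, SESN3 at 1.94, CDKN1C at 2.15 and PIK3IP1 at 3.23 CPM in any library. HMGCS1, DUSP6 and PLK1 overlap another gene on the opposite strand in part of their exons. Line and MET status cannot be told apart in these values.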

How the results depend on the processing

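The number of genes called from 3 to 6 h in NCI-H596 (1472) depended on the setting. It was 695 (212 higher, 483 lower) with the line fitted alone, 3537 with the 4 libraries fitted alone, 22 in the additive model of line and time, and 186 at an absolute log2 fold change of at least 1. With 1 library left out it ranged from 459 to 3100, the highest values (3100 and 3045) being those without a 12 h library. In A549 (467) the counts were 951, 2435, 22 and 68 under the first 4 settings and 860 without a filter on low counts, and from 96 to 1264 with 1 library left out. For the difference between the lines (775) 205 genes reached the log2 fold change of 1, and with 1 library left out the count ranged from 235 to 2046. The NCI-H596 change from 0 to 12 h was called for 5906 to 7157 genes without a 12 h library, against 5774. With a replicate block, 1165 genes were called in NCI-H596 (1147 of them among the 1472), 309 in A549 and 523 in the difference. The numbers share only a name here, so these counts do not bear on pairing. DESeq2 called 1504 genes, its size factors in edgeR 1461, no filter 1851, the stricter filter 1367 (532 higher, 835 lower, a split that differs from 703 and 769) and the GC and length correction 2000 (1016 higher, 984 lower).

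Of 107 called genes among the 125 named, 53 kept their call under each of the 12 alternatives run for single genes, and 0 changed direction under any. Direction changed for 4 genes that were not called: MET (0.0072 with the GC and length correction, -0.113 to 0.0645 with 1 library left out), and, with 1 library left out, CDH1 (-0.114 to 0.288), E2F1 (-0.0209 to 0.0703) and AURKB (-0.0398 to 0.186), all as log2 fold changes. The additive model kept 20 of the 1472 calls, since by its construction it tests the change shared by the lines. The median of all genes lay between -0.01 and 0.01 under the alternatives. Genes at the floor of 3 counts per library cannot show a fold change at this depth.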

Other observations

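Several other gene groups of NCI-H596 held calls from 3 to 6 h of HGF, read here against 4.67% of all genes higher and 5.1% lower. Genes for tRNA synthetases rose in 5 of 20 cases and fell in 1 (median 0.09), with VARS1 at 136 and 154 CPM at 3 h and 204 and 210.1 CPM at 6 h and AARS1 the fall, and 0 to 2 rises were called with any 1 of the 4 libraries left out. The G1 list holds 27 genes, with cyclins, CDK inhibitors and the transcription factor gene E2F4 among them. Of these 1 rose (E2F4, 0.45 log2, its call lost without replicate 1 of 3 h at 0.38 log2). The 3 falls included the CDK inhibitors CDKN1C (8.55 and 8.09 CPM at 3 h, 3.29 and 2.83 at 6 h) and CDKN2B (52.0 and 51.0 CPM at 3 h, 32.1 and 31.5 at 6 h). CCND1 was at 256 and 288 CPM at 0 h, 641 and 584.6 at 3 h and 707 and 653 at 6 h and was not called (0.15 log2). The ETS list had 1 rise, the repressor ELK3 (23.9 and 20.8 CPM to 41.0 and 44.9 CPM), and 3 falls of 19. Genes of cholesterol and fatty acid synthesis rose in 2 of 27 cases and fell in 5, where HMGCS1 (-0.62 log2) overlaps another gene over 37.7% of its exonic bases. The TGF-beta, BMP and ID list had 1 rise, INHBA (0.72 log2), and 4 falls of 25, with ID3 at 165 and 144 CPM at 3 h and 94.2 and 97.5 CPM at 6 h. The call of INHBA was lost without replicate 2 of 3 h (0.59 log2) and without replicate 2 of 6 h (0.43 log2). With 1 of the 4 libraries left out, 1 fall was called in the ETS list, 1 to 3 in the cholesterol list and 2 in the TGF-beta, BMP and ID list.

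Smaller numbers were called elsewhere, again read against 4.67% of all genes higher and 5.1% lower. STAT3 and SOCS genes had 2 rises and 4 falls of 18 (11.1% and 22.2%). NF-kappaB subunits and feedback genes had 0 and 3 of 19 (15.8% lower, TNFAIP2 -1.13 log2). ATF4 targets had 0 and 3 of 27 (11.1% lower, TRIB3 -0.57), and the Notch pathway 0 and 2 of 21 (9.52% lower). Heat shock proteins had 1 and 2 of 19 (5.26% and 10.5%). Glycolysis and hypoxia genes had 2 and 1 of 29 (6.90% and 3.45%), and ER chaperones 1 and 0 of 22 (4.55% higher). Counts of 1 or 2 members do not set a list apart from all genes. With 1 of the 4 libraries left out, the ATF4 list held 0 to 2 falls and the STAT3 and SOCS list 0 or 1 rise and 1 or 2 falls. In the list of qPCR genes, which was picked with these samples known and is no independent evidence, 2 of 19 rose (10.5%) and 5 fell (26.3%). Among gene families, 8 of 460 ZNF genes rose and 15 fell, both shares below those of all genes. Of 181 TMEM genes 15 rose, a share above that of all genes, and 2 fell, a share below it.

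The word TTTGAA (CHR, searched on both strands) was present in the promoters of 26 of 37 mitosis genes (70.3%), against 9.77% of tested genes, and TTTGGCGC or TTTCCCGC (E2F, both strands) in 17 of 37 DNA replication genes (45.9%), against 3.56%. The E-box was present in 5 of 17 clock gene promoters (29.4%). The other words searched were TGACGTCA (CRE), TGANTCA (AP-1), TGTTTAC (FOXO), the NF-kappaB site and the CArG box. Each was present in at most 9.09% of the promoters of any of the 5 lists searched, and in at most 3 promoters of a list. Across these lists CRE ranged from 4.55% to 8.11% (3.18% of tested promoters), AP-1 from 0% to 9.09% (4.78%) and FOXO from 0% to 5.88% (2.19%). The NF-kappaB site ranged from 0% to 8.11% (2.17%) and the CArG box from 0% to 4.55% (1.11%). The other gene lists were not searched. These shares describe sequence and were not tested against the change from 3 to 6 h.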
